A study of Mus musculus with 2 samples.

Results

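The collagen chain genes of the mouse were followed here through the cells of the mitral valve in fibrillin-1-deficient and normal animals. Members were all genes of the deposited matrices whose symbol has the form of a collagen alpha chain, Col followed by a type number, the letter a and a chain number, and 44 of the 32285 genes listed met that form. They comprised 11 fibrillar chains, 6 basement membrane chains of type IV, 6 chains of the beaded filaments of type VI, 3 network-forming chains of types VIII and X, 9 fibril-associated chains with interrupted triple helices (FACIT), 2 multiplexins, 4 transmembrane chains, the anchoring fibril chain Col7a1 and 2 others.

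Collagens are helices wound from alpha chains, and the type is set by which chains join. Types I and III form the load-bearing fibrils of valve leaflets, with type V inside them and FACIT chains on their surface, whereas type IV chains build the sheet beneath endothelium and around other cells, and type VI chains form beaded filaments close to cell surfaces. Valve interstitial fibroblasts are the main source of leaflet collagen. Fibrillin-1, encoded by Fbn1, is a microfibril protein of the same matrix.

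Single-cell RNA-Seq was performed on mitral valves of 12-week-old mice, with 1 library of wild-type Fbn1+/+ littermates (WT) and 1 library of Fbn1 mgR/mgR mice (mgR), which are homozygous for a hypomorphic allele that lowers Fbn1 transcript without removing coding sequence. No treatment or transgene was named for either group. The labels do not say how many animals each library holds, and the study's supplement gives a number of replicates without saying that they were pooled. Cells were released with collagenase and elastase and sorted as viable, a route that selects cells which survive digestion.

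The WT library held 1104 barcodes and 5381844 unique molecular identifiers (UMIs, each counting 1 captured transcript), and the mgR library 3802 barcodes and 28215539 UMIs. After filtering, 875 WT and 3438 mgR cells were kept, with a median of 5033 and 7370 UMIs, and the libraries shared 2 barcodes, none of them among kept cells. The study's methods describe comparisons in males, yet Xist UMIs without UMIs of 4 Y-linked genes were found in 28.1% of WT and 60.8% of mgR cells, and Y-linked UMIs without Xist in 38.5% and 21.1%. Sex and genotype were thus mixed unequally, so ratios are also given within the former cells, called Xist-only, and the latter, called Y-only. Another 286 WT and 578 mgR kept cells held neither kind of UMI, and 6 and 45 held both. These cells lie in neither subset. Fibroblasts carried 289 WT and 842 mgR Fbn1 UMIs, or 169.8 and 133.5 UMIs per 1000000 UMIs of those cells (CPM), an mgR-to-WT ratio of 0.787 (95% interval 0.687 to 0.902). With 1 library per genotype there is no replicate and no test between genotypes: ratios compare these libraries, and every interval covers counting error only.

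Cells were assigned by marker UMIs: fibroblasts by at least 3 UMIs of Dcn, Lum and Pdgfra together, macrophages by at least 10 of C1qa, C1qb and C1qc, and endothelium by at least 2 of Pecam1 and Cdh5, each cell meeting 1 rule only. This gave 335 WT and 915 mgR fibroblasts with a median of 5135 and 6637 UMIs. A set of 8 other fibroblast genes, not used by the rule, summed to 23580 and 21828 CPM in them, against 171 and 124 CPM in macrophages. Most of these sums was Gsn alone, at 18336 and 16774 CPM in fibroblasts and 158 and 114 CPM in macrophages. Dpt, another of the 8, stood at 2362 and 2156 CPM against 3.46 and 3.89 CPM, so the label held for it too. The 8 macrophage check genes summed to 32.9 CPM in WT and 356 CPM in mgR fibroblasts, against 17209 and 20852 CPM in macrophages, with 1 gene at 0 in WT fibroblasts and none in mgR. The 8 endothelial check genes summed to 189 and 221 CPM in fibroblasts.

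Collagen transcripts were mostly those of fibroblasts, which held 97.2% of WT and 94.2% of mgR Col1a1 UMIs. Collagen chains took 9901 of the WT and 34960 of the mgR fibroblast UMIs, or 0.582% and 0.554%, a ratio of 0.953 (0.932 to 0.975). The collagen share of a single fibroblast varied far more than this: its median was 0.457% in WT and 0.445% in mgR, with a 10th to 90th percentile range of 0.176% to 1.09% and 0.147% to 1.01%. A median of 9 WT and 10 mgR chains was detected per fibroblast, and 2 and 21 fibroblasts had none.

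Of the 44 members, 25 passed the filter of 20 UMIs expected in the smaller library, which lies at 11.75 CPM in fibroblasts. Of these, 2 were at least 1.5-fold higher in mgR fibroblasts, Col8a1 and Col8a2, against 4.15% of all 7759 genes that passed. None was at least 1.5-fold lower, against 7.11% of the same genes. The ratio was above 1 for 9 members and below 1 for 16, with a median of 0.949, and the median of all genes was 0.966, with 43.5% above 1. The median of the collagen chains thus sat close to that of all genes, and members of the same class could lie on either side of 1.

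**Figure D1:**
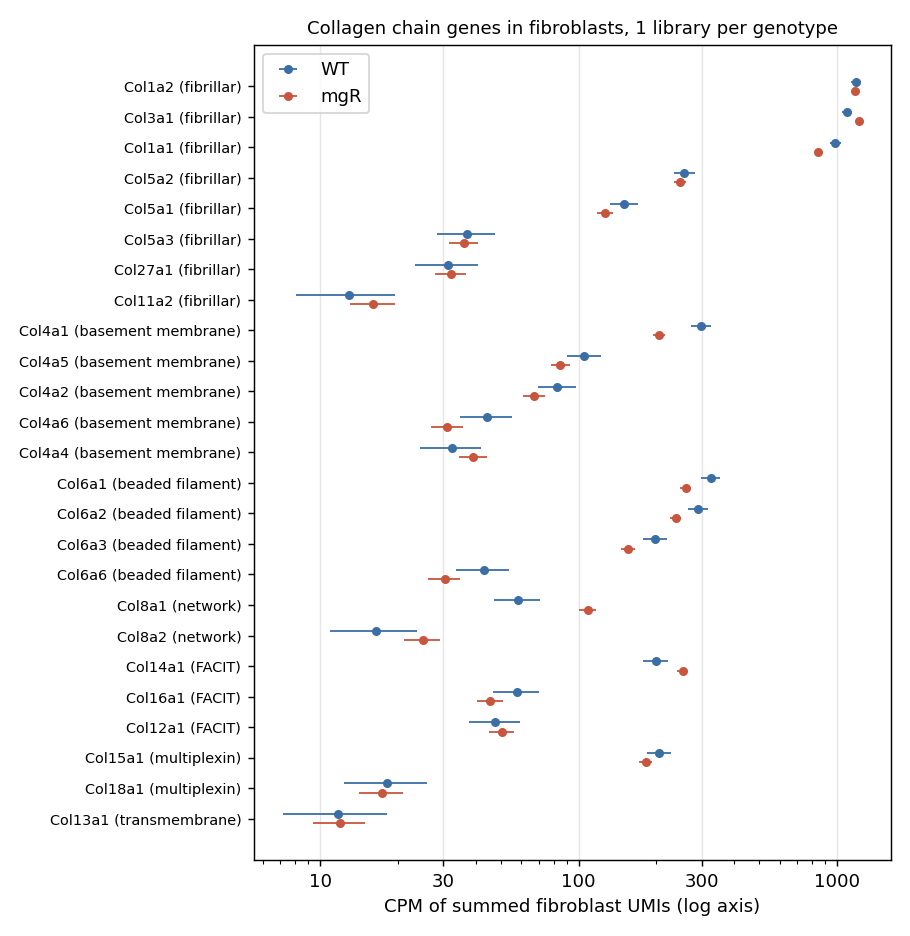
Level of the 25 collagen chain genes that passed the filter in fibroblasts, in CPM on a log axis, ordered by class, with WT and mgR as separate points and bars for the 95% Poisson interval of counting. Col1a2, Col3a1 and Col1a1 lie near 1000 CPM in both libraries, and the visible gap is that of Col8a1, at 58.2 CPM in WT and 108.5 CPM in mgR.

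Another 14 members had at least 1 UMI in a library without passing in fibroblasts: Col2a1, Col11a1, Col4a3, Col6a5, Col9a1, Col9a2, Col9a3, Col20a1, Col22a1, Col17a1, Col23a1, Col25a1, Col7a1 and Col26a1. The remaining 5, Col24a1, Col6a4, Col10a1, Col19a1 and Col28a1, had no UMI in any kept cell of either library, which allows a level of up to 0.655 CPM in WT and 0.112 CPM in mgR. Col10a1, the chain of hypertrophic cartilage, was among them. Col2a1, the main chain of cartilage fibrils, had 0 WT and 1 mgR UMI in fibroblasts.

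Fibrillar chains made up 64.7% of WT and 66.9% of mgR fibroblast collagen UMIs, and their sum was nearly level between the libraries, with a ratio of 0.986 (0.959 to 1.01). Col1a2, the second chain of type I collagen, stood at 1187 CPM in WT and 1170 CPM in mgR. Col3a1, the sole chain of type III, stood at 1096 and 1217 CPM, a ratio of 1.11 (1.06 to 1.17) that was in neither subset, at 1.004 (0.920 to 1.10) in Xist-only and 1.03 (0.946 to 1.11) in Y-only cells. Col1a1, the major chain of type I, stood at 984.6 and 847.6 CPM, a ratio of 0.861 (0.815 to 0.910). The type I chains thus differed from each other: Col1a1 was counted 0.830 times (0.777 to 0.886) for each Col1a2 UMI in WT and 0.724 times (0.699 to 0.750) in mgR, although the protein takes 2 Col1a1 chains for each Col1a2 chain.

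The minor fibrillar chains that passed the filter lay within 1.5-fold. Col11a1, which did not pass, had 12 WT and 98 mgR UMIs, or 7.05 and 15.5 CPM, a ratio of 2.20 (1.21 to 4.41). Col5a2 and Col5a1, chains of the type V collagen on which fibrils nucleate, had ratios of 0.962 (0.865 to 1.07) and 0.844 (0.732 to 0.975), from 256.7 to 246.9 CPM and from 149.8 to 126.4 CPM. Col5a3, their rarer partner, stood at 37.0 and 36.0 CPM and Col27a1, a fibrillar chain of cartilage, at 31.1 and 32.0 CPM, both level between the libraries within counting error. Capture efficiency per transcript is unknown, so that the order of genes by UMIs is not an order of transcript abundance.

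**Figure D2:**
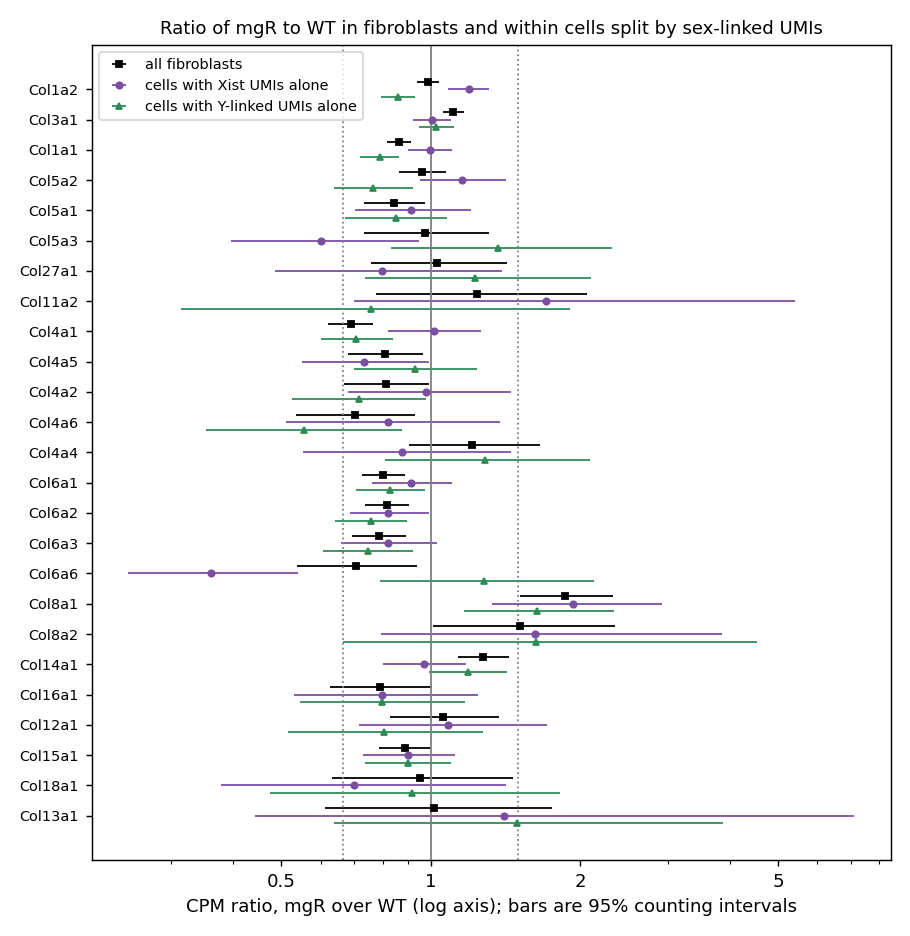
Ratio of mgR to WT level in fibroblasts for the same 25 genes, with squares for all fibroblasts, circles for Xist-only cells and triangles for Y-only cells, 95% counting intervals as bars and dotted lines at 1.5 and 0.667. Col8a1 lies to the right of 1 in all 3, Col6a1, Col6a2 and Col6a3 lie to the left in all 3, and Col6a6 is split between 0.360 and 1.28.

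The network-forming chains of type VIII collagen held both members past the fold in mgR fibroblasts. Col8a1, which is known from the subendothelial matrix of vessels and the corneal Descemet membrane, had 99 UMIs in WT and 684 in mgR fibroblasts, or 58.2 CPM (47.3 to 70.8) and 108.5 CPM (100.5 to 116.9), a ratio of 1.87 (1.51 to 2.33). Its partner Col8a2 had 28 and 157 UMIs, or 16.4 CPM (10.9 to 23.8) and 24.9 CPM (21.2 to 29.1), a ratio of 1.51 (1.01 to 2.35), just past the fold and with an interval that nearly reaches 1. The class sum was 74.6 CPM in WT and 133.4 CPM in mgR, a ratio of 1.79 (1.48 to 2.17). The counting intervals of the libraries did not overlap for Col8a1 and did overlap for Col8a2. The Col8a2 ratio was short of the fold with stricter marker minimums, at 1.39, and with cells thinned to 2000 UMIs, at 1.16.

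Col8a1 was higher in mgR cells of either sex marker, with a ratio of 1.93 (1.33 to 2.91) for Xist-only and 1.64 (1.16 to 2.34) for Y-only fibroblasts. It was found in 16.7% of WT and 31.6% of mgR fibroblasts. After each cell was thinned to 2000 UMIs it was found in 10.2% (7.02% to 14.3%) and 14.8% (12.4% to 17.3%), intervals that overlap, with 42 WT and 54 mgR shallower cells left out. The 10 cells with most Col8a1 held 38.4% of its WT and 18.4% of its mgR UMIs. For Col12a1, with 81 WT and 318 mgR UMIs, the like shares were 35.8% and 21.4%, so such a share was not particular to Col8a1. Without the 10 cells with most UMIs of the class sum in each library, the class ratio was 2.33. That setting removes a larger share of the smaller WT group. In macrophages, which should lack the gene, Col8a1 had 0 UMIs in WT, which allows up to 2.08 CPM, and 1 in mgR.

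The stretch of 150 bases before the RefSeq start of each type VIII gene is shown because these genes were the members past the fold, in RefSeq sequence of GRCm38.p6, 5′ to 3′ on the gene's strand, with capitals on each match to GGGCGG, the GC box, on either strand. The stretches are chr16:57754738-57754887 on the minus strand for Col8a1 and chr4:126286644-126286793 on the plus strand for Col8a2.
Col8a1: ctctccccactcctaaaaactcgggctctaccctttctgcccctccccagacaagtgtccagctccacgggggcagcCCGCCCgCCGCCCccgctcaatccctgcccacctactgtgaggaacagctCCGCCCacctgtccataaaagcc
Col8a2: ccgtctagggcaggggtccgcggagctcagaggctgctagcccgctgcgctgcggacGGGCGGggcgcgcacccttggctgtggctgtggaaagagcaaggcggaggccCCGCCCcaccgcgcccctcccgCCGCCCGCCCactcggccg
The Col8a1 stretch held 3 matches, all on the opposite strand, and the Col8a2 stretch held 4, of which the last 2 overlap. GGGCGG was present in 28.6% of the 32851 promoter stretches of this length and in 19 of the 35 members with an entry, whereas CCAAT, the CCAAT box, was present in 24.5% and in 8 members and the TATA box, spelled TATAAA, in 7.57% and in 4 members. Members were counted once if any of their promoter stretches matched, whereas the percentages are per stretch, so the figures are not a like comparison. A match is a string of letters and says nothing of binding.

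Type IV chains of the basement membrane were lower in mgR fibroblasts as a class, at 569 CPM in WT and 440 CPM in mgR, a ratio of 0.773 (0.718 to 0.832). Col4a1, which with Col4a2 makes the basement membrane network of nearly all tissues, contributed most of this, with 297.9 CPM in WT and 205.4 CPM in mgR, a ratio of 0.690 (0.622 to 0.766) that falls short of the 1.5-fold limit. Col4a2 stood at 82.8 and 67.2 CPM, a ratio of 0.812 (0.670 to 0.989). Col4a6 and Col4a5, which share a network in smooth muscle and some epithelial membranes, had ratios of 0.702 (0.535 to 0.929) and 0.808 (0.681 to 0.963). Col4a4, known from the glomerular membrane, went the other way, at 32.3 and 39.2 CPM, with an interval of 0.902 to 1.66 that includes 1.

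The Col4a1 difference was not shared by both sex-marker subsets. Its ratio was 1.01 (0.820 to 1.26) in Xist-only cells and 0.708 (0.600 to 0.837) in Y-only cells, and the intervals of the subsets overlapped narrowly. The class ratio was 0.922 (0.803 to 1.06) and 0.774 (0.688 to 0.871). Whether the subsets differ was not tested.

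Type IV genes lie head to head in pairs on the chromosomes, and the counts of each pair can be set side by side. In GRCm38 the starts of Col4a1 and Col4a2 on chromosome 8 share 22 transcribed bases, the start of Col4a4 lies 71 bases from that of Col4a3 on chromosome 1, and that of Col4a6 lies 1308 bases from that of Col4a5 on chromosome X. Fibroblasts held 3.60 Col4a1 UMIs for each Col4a2 UMI in WT (2.98 to 4.37) and 3.05 in mgR (2.73 to 3.42). They held 4.58 Col4a4 UMIs for each Col4a3 UMI in WT (2.43 to 9.40) and 3.21 in mgR (2.47 to 4.20), and 2.39 Col4a5 UMIs for each Col4a6 UMI in WT (1.81 to 3.17) and 2.75 in mgR (2.33 to 3.25). Each pair kept its order in both libraries, and in no pair did the intervals of the libraries part.

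The whole gap between the Col4a4 and Col4a3 starts is shown as the shortest of these shared intervals, chr1:82586850-82586920 of GRCm38.p6 on the plus strand, where Col4a4 is transcribed to the left and Col4a3 to the right, and no match to the GC box, the CCAAT box or the TATA box was found on either strand.
Col4a4-Col4a3: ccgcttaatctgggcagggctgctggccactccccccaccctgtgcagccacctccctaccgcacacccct

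Type VI chains of the beaded filaments were lower in mgR fibroblasts and moved together. Col6a1 stood at 324.3 CPM in WT and 260.3 CPM in mgR, Col6a2 at 290.8 and 237.4 CPM, and Col6a3 at 198.0 and 155.8 CPM. Their ratios were 0.803 (0.728 to 0.885), 0.816 (0.737 to 0.906) and 0.787 (0.694 to 0.893), so each of the 3 chains of the classical heterotrimer differed by about the same amount. The class sum of 857 and 684 CPM gave 0.798 (0.752 to 0.848), with 0.808 in Xist-only cells and 0.799 in Y-only cells.

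Chain proportions within type VI were nearly identical between the libraries, with 1.12 Col6a1 UMIs for each Col6a2 UMI in WT and 1.10 in mgR, and 1.64 and 1.67 for each Col6a3 UMI. Col6a6, a chain related to Col6a3, stood at 42.9 and 30.3 CPM, a ratio of 0.706 (0.537 to 0.938), but its subsets parted, at 0.360 (0.246 to 0.541) in Xist-only cells and 1.28 (0.789 to 2.13) in Y-only cells. Col6a4 had no UMI, and Col6a5 had 1 WT UMI in fibroblasts.

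FACIT chains were 310 CPM in WT and 359 CPM in mgR fibroblasts, a ratio of 1.16 (1.05 to 1.28) to which Col14a1 contributed most. Col14a1, which binds fibrils through decorin and regulates their diameter, stood at 198.6 and 253.0 CPM, a ratio of 1.27 (1.13 to 1.44). Col12a1, a FACIT chain of tendon and other dense tissue, stood at 47.6 and 50.4 CPM, and Col16a1, found near basement membranes and in cartilage, at 57.6 and 45.5 CPM, a ratio of 0.791 (0.627 to 1.005). The subset ratios of Col14a1 were 0.968 (0.801 to 1.18) in Xist-only cells and 1.19 (0.992 to 1.43) in Y-only cells, so that the difference seen in all fibroblasts was not present in both. Macrophages also carry Col14a1, as described further on. The macrophage check genes moved with this, 32.9 CPM in WT and 356 CPM in mgR fibroblasts, and their part in the result was not tested.

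Among the rest, the multiplexins Col15a1 and Col18a1, which sit in the zone of basement membranes, stood at 205.6 and 182.2 CPM and at 18.2 and 17.3 CPM, with ratios of 0.886 (0.786 to 1.002) and 0.949 (0.632 to 1.46). Col13a1, a transmembrane collagen of cell adhesion sites, stood at 11.7 and 11.9 CPM. The intervals of all 3 ratios include 1.

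Taking all 25 members, the direction of the mgR-to-WT ratio was the same in both sex-marker subsets for 15, with 4 above 1 and 11 below 1 in both, and opposite for 10, beside 42.6% of the 7755 genes that gave both ratios. The intervals of the subsets did not overlap for 4 members, beside 3.89% of those genes, and intervals are narrower for genes with more UMIs. Col1a2 had 1.19 (1.08 to 1.31) in Xist-only cells and 0.859 (0.794 to 0.930) in Y-only cells, and Col5a2 had 1.15 (0.951 to 1.41) and 0.766 (0.639 to 0.919). Col1a1 had 0.994 (0.898 to 1.10) and 0.789 (0.721 to 0.863), and Col6a6 is given above. The collagen total followed, at 1.01 (0.969 to 1.05) and 0.882 (0.851 to 0.915). WT gave 82 fibroblasts to the Xist subset and 147 to the Y-linked subset, and mgR gave 539 and 216. A further 105 WT and 152 mgR fibroblasts had UMIs of neither kind and 1 and 8 had both, so the subsets do not make up all fibroblasts. For Col3a1, Col4a1 and Col14a1 the ratio over all fibroblasts lay outside both subset ratios, and the part of the cells in neither subset was not tested. Animals behind each subset are unknown, so sex and animal cannot be told apart.

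Fibroblasts were not uniform, and several chains were found almost only in some of them. Chad, Prg4, Scx and Comp, genes of tendon and cartilage cells, summed to at least 3 UMIs in 141 of 335 WT fibroblasts (42.1%, 36.7% to 47.6%) and 484 of 915 mgR fibroblasts (52.9%, 49.6% to 56.2%), cells that held 49.4% and 58.4% of fibroblast UMIs. All 12 WT and 96 of 98 mgR UMIs of Col11a1, a chain that nucleates cartilage fibrils, lay in these cells. So did 20 of 22 WT and 100 of 101 mgR UMIs of its partner Col11a2, and all 28 WT and 151 of 157 mgR UMIs of Col8a2. Col9a1, a FACIT chain of cartilage fibrils, had 2 of 3 WT and 23 of 24 mgR UMIs there.

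Col11a1, Col11a2 and Col8a2 thus lay almost wholly in these cells. Col12a1 had 59.3% and 73.9% of its UMIs in the cells with tendon and cartilage markers, whereas Col8a1 had 54.5% and 55.0%, near the share of all UMIs. Col8a1 and Col8a2, counted at 3.54 to 1 in WT (2.30 to 5.59) and 4.36 to 1 in mgR (3.66 to 5.21), therefore differed in where they were found. Col5a2 was 1.86 (1.53 to 2.28) and 1.48 (1.33 to 1.65) times its level in the other fibroblasts.

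**Figure D3:**
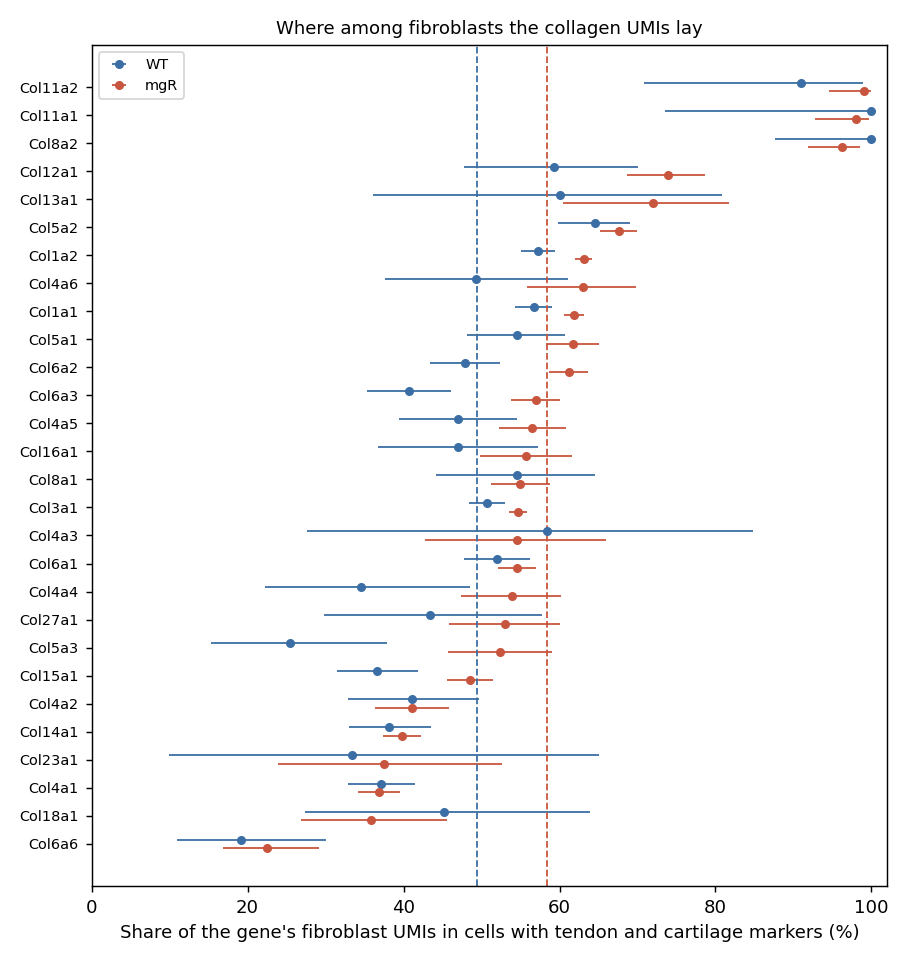
Percent of each gene's fibroblast UMIs that lay in cells with at least 3 UMIs of Chad, Prg4, Scx and Comp, for members with at least 10 UMIs in each library, WT and mgR as separate points with 95% binomial bars, and dashed lines at the share of all fibroblast UMIs in those cells, 49.4% in WT and 58.4% in mgR. Col11a1, Col11a2 and Col8a2 lie at 90.9% or more in both libraries, and Col6a6 lies lowest, at 19.2% and 22.5%.

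Other chains were lower in these cells than in the other fibroblasts. In cells with tendon and cartilage markers, Col4a1 was at 0.604 (0.502 to 0.725) of its level in the other WT fibroblasts and 0.415 (0.370 to 0.465) in mgR. Col14a1 was at 0.632 (0.504 to 0.792) and 0.471 (0.425 to 0.521), Col15a1 at 0.591 (0.472 to 0.738) and 0.672 (0.597 to 0.756), and Col6a6 at 0.243 (0.125 to 0.441) and 0.207 (0.144 to 0.292). These intervals all lie below 1 in both libraries. Type IV chains were not alike, since the intervals of Col4a5, at 0.906 (0.667 to 1.23) and 0.925 (0.778 to 1.10), and of Col4a6, at 0.998 (0.617 to 1.61) and 1.22 (0.902 to 1.65), include 1 in both libraries.

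The type XI genes, whose chains join in the same collagen, are shown by their 150 bases before the RefSeq start, in RefSeq sequence of GRCm38.p6, 5′ to 3′, with capitals on each match to the GC box, the CCAAT box or the TATA box on either strand. They are chr3:114030390-114030539 for Col11a1 and chr17:34038988-34039137 for Col11a2, both on the plus strand.
Col11a1: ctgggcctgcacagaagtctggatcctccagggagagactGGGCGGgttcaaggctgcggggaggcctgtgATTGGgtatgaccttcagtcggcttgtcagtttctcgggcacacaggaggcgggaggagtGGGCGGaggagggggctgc
Col11a2: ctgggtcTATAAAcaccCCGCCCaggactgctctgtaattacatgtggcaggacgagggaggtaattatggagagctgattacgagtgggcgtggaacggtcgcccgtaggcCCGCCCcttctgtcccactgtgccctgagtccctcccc
Col11a1 had 2 GC box matches and 1 CCAAT box match, the latter on the opposite strand. Col11a2 had 2 GC box matches and 1 TATA box match, whose first base lies 143 bases before the RefSeq start. The GENCODE start of Col11a2 lies further downstream, at base 34039437, so the stretch does not adjoin it. The TATA box was in 7.57% of all promoter stretches of this length.

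Because the share of cells with tendon and cartilage markers was higher in mgR over all fibroblasts, the genotype ratios were taken again within marker subsets. Ptx3, Igfbp3 and Smoc2 served as markers of valve interstitial cells. In cells with tendon and cartilage markers alone, 103 WT and 343 mgR, Col8a2 stood at 45.2 and 50.7 CPM, a ratio of 1.12 (0.726 to 1.80), below its ratio of 1.51 over all fibroblasts. Col8a1 stood at 39.8 and 77.9 CPM there, a ratio of 1.96 (1.26 to 3.20). The higher Col8a1 level of mgR was thus present within that subset, and for Col8a2 it was not detectable at this depth.

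Col8a1 was above 1 in the other subsets too. Its ratio was 1.46 (1.03 to 2.12) in cells with valve interstitial markers alone, 87 WT and 204 mgR, and 1.36 (0.928 to 2.04) in cells with both sets. In cells with neither set, 107 WT and 227 mgR, it had 6 and 127 UMIs, or 14.7 and 107.6 CPM, a ratio of 7.33 (3.28 to 20.4). Cells with neither set were the shallowest, at a median of 3614 and 4990 UMIs, and a marker minimum in UMIs leaves different cells out at different depths.

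Col14a1 and Col3a1 also had their highest ratios in the cells with neither set, 2.73 (1.95 to 3.91) and 1.49 (1.30 to 1.72), while Col3a1 was at 0.862 (0.791 to 0.942) in cells with tendon and cartilage markers alone. Col14a1 was most abundant in cells with valve interstitial markers alone, at 375.5 and 453.0 CPM. Col4a1 differed most in cells with tendon and cartilage markers alone, at 200.8 CPM in WT and 90.5 CPM in mgR, a ratio of 0.451 (0.357 to 0.571), against 0.825 (0.701 to 0.975) in cells with valve interstitial markers alone. Col6a1 followed the same order, at 0.640 (0.543 to 0.757) and 0.863 (0.718 to 1.04), but its partner chains had the opposite order. Col6a2 was at 0.878 (0.731 to 1.06) and 0.671 (0.553 to 0.817). Col6a3 was at 0.816 (0.647 to 1.04) and 0.716 (0.573 to 0.901). Differences between subsets were not tested.

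In cells that met the endothelium rule, most of which also met the fibroblast rule, the collagen chains had a different composition from that in fibroblasts. Only 14 WT and 72 mgR cells met the endothelium rule alone, and no member reached 20 expected UMIs there, a floor of 373.5 CPM. Since 43 WT and 382 mgR cells met the endothelium and the fibroblast rule together, the 57 WT and 454 mgR cells of the endothelium rule, fibroblast rule met or not, were also examined, a choice made after seeing the data. In these cells the 8 endothelial check genes summed to 3341 and 4128 CPM and the 8 fibroblast check genes to 5359 and 2223 CPM, with no gene of either list at 0. Transcripts of both lists were thus present in these cells as a group. The fibroblast rule was met by 75.4% (62.2% to 85.9%) of these WT cells and 84.1% (80.4% to 87.4%) of these mgR cells. The fibroblast check genes, which that rule does not use, reached 3 UMIs in fewer of these cells, 38.6% and 49.3%. The share with 3 such UMIs was 98.2% and 96.9% in fibroblasts and 17.0% and 11.8% in macrophages.

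The transmembrane chain Col23a1 was the member highest in these cells relative to fibroblasts. It had 10 WT and 138 mgR UMIs, or 35.8 and 46.9 CPM, which was 5.08 (1.97 to 12.8) and 6.16 (4.41 to 8.75) times its fibroblast level. Col18a1, the chain that releases endostatin, had 23 and 135 UMIs, or 82.4 and 45.9 CPM, which was 4.53 (2.52 to 8.02) and 2.66 (2.05 to 3.45) times its fibroblast level. Cells that met both rules held 45.5% of WT and 66.3% of mgR Col23a1 UMIs and 17.6% and 41.9% of Col18a1 UMIs.

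Type IV chains stood near or above their fibroblast level, with Col4a1 at 1.44 (1.17 to 1.77) and 1.21 (1.10 to 1.32), Col4a2 at 1.13 (0.710 to 1.72) and 1.19 (1.01 to 1.40) and Col4a4 at 1.33 (0.649 to 2.52) and 1.57 (1.29 to 1.91). Col4a5 and Col4a6 stood well below, at 0.205 (0.0741 to 0.454) and 0.248 (0.188 to 0.323) for Col4a5 and at 0.0814 (0.00203 to 0.467) and 0.132 (0.0670 to 0.236) for Col4a6. Of the type IV pairs, that on chromosome X was thus lower in these cells than in fibroblasts, and the other pairs were not.

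The fibrillar chains were low, with Col1a1 at 0.120 (0.0824 to 0.169) and 0.0778 (0.0671 to 0.0898) and Col1a2 at 0.133 (0.0963 to 0.179) and 0.0671 (0.0586 to 0.0765) of the fibroblast level. Col3a1 stood at 0.245 (0.192 to 0.309) and 0.176 (0.162 to 0.191), and Col5a2 at 0.489 (0.336 to 0.690) and 0.398 (0.350 to 0.451). The proportions of the fibrillar chains differed from those in fibroblasts. There were 1.70 Col3a1 UMIs for each Col1a2 UMI in WT (1.16 to 2.53) and 2.73 in mgR (2.35 to 3.19), against 0.924 (0.867 to 0.984) and 1.04 (1.01 to 1.07) in fibroblasts. There were 5.83 Col5a2 UMIs for each Col5a1 UMI in WT (2.43 to 17.0) and 7.23 in mgR (5.18 to 10.3), against 1.71 (1.47 to 2.01) and 1.95 (1.79 to 2.13) in fibroblasts.

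**Figure D4:**
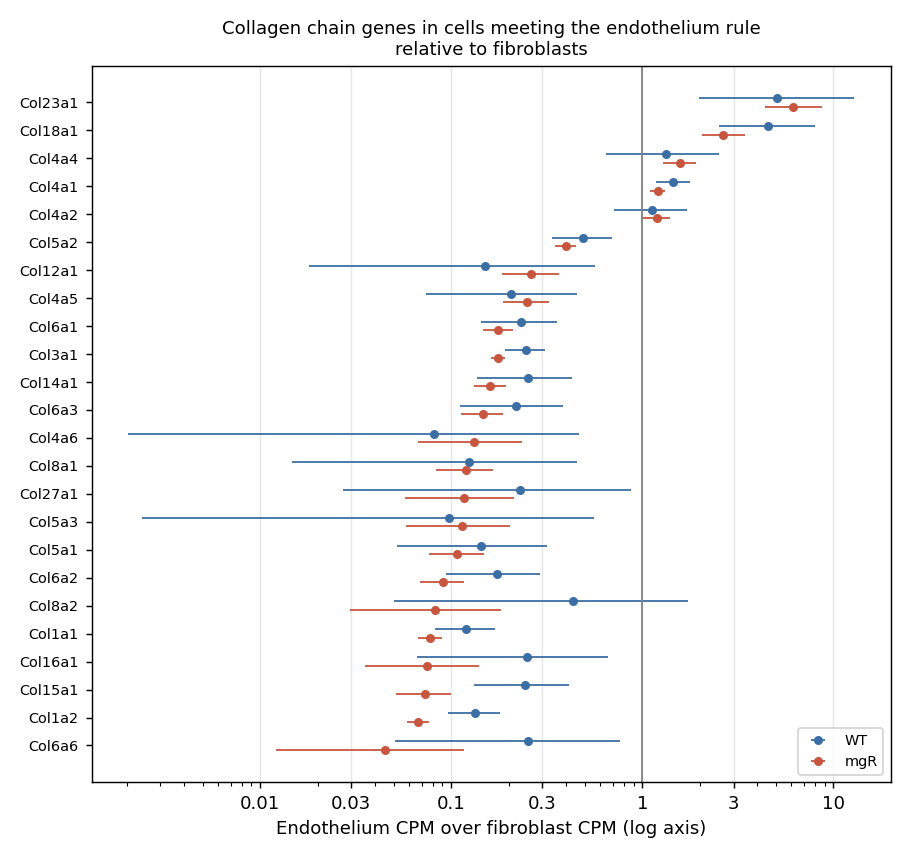
Level in cells of the endothelium rule, fibroblast rule met or not, divided by the level in fibroblasts, on a log axis, with WT and mgR as separate points and 95% counting intervals. Col23a1 and Col18a1 lie at 2.66 or more in both libraries, Col4a1, Col4a2 and Col4a4 lie at 1.13 to 1.57, and Col1a1 and Col1a2 lie at 0.133 or less.

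Between the genotypes, 6 members passed in these cells and all 6 were below 1, with a median ratio of 0.679 against 0.998 for all 2429 genes that passed. At least 1.5-fold lower in mgR were 3, against 5.89% of all genes, and 0 were higher, against 5.39%. Col4a1 stood at 430.1 CPM in WT and 247.5 CPM in mgR, a ratio of 0.575 (0.474 to 0.704). Col1a2 stood at 157.7 and 78.5 CPM, a ratio of 0.498 (0.359 to 0.704), and Col1a1 at 118.3 and 66.0 CPM, a ratio of 0.558 (0.384 to 0.833). Of the 57 WT cells, 7 held all 33 Col1a1 UMIs, 14 held all 44 Col1a2 UMIs and 35 held all 120 Col4a1 UMIs. The counting intervals do not cover this spread between cells. Col3a1, Col5a2 and Col4a2 had ratios of 0.798 (0.627 to 1.03), 0.783 (0.550 to 1.15) and 0.861 (0.573 to 1.35), with intervals that include 1.

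The fibroblast check genes moved with this, 5359 CPM in WT against 2223 CPM in mgR, and their part in the result was not tested. The Col4a1 ratio was 1.13 (0.750 to 1.78) in Xist-only cells, 18 WT and 271 mgR, and 0.346 (0.247 to 0.491) in Y-only cells, 16 WT and 84 mgR. Col3a1 had 2.56 (1.38 to 5.37) and 0.308 (0.175 to 0.558). The sum of all chains was 1.13 (0.939 to 1.37) and 0.425 (0.356 to 0.509), so that it was lower in mgR among Y-only and not among Xist-only cells. The difference between the subsets was not tested.

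Macrophages carried a single collagen chain in quantity. Of all members only Col14a1 passed the filter in the 224 WT and 1526 mgR macrophages, with 97 and 839 UMIs, or 67.2 CPM (54.5 to 81.9) and 62.8 CPM (58.7 to 67.2). Its genotype ratio was 0.936 (0.758 to 1.17), level within counting error and short of the fold, which 9.55% of 6116 genes passed as higher in mgR and 5.26% as lower.

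The Col14a1 level of macrophages was 33.8% (26.7% to 42.5%) of the fibroblast level in WT and 24.8% (22.8% to 27.0%) in mgR. Dpt, a fibroblast gene, served as the background, at 0.147% (0.0476% to 0.342%) and 0.181% (0.135% to 0.237%) of its fibroblast level in macrophages. The fibroblast check genes Fbln1 and Gsn stood at 0.236% and 0.134% and at 0.861% and 0.679%. Free RNA was not measured, and the source of these UMIs was not tested. Col1a1 stood at 0.141% and 0.124%, Col1a2 at 0.117% and 0.102%, and Col3a1 at 0.316% and 0.129%. Col14a1 thus lay far above the Dpt background, whereas Col1a1 and Col1a2 lay within its interval in WT and below it in mgR.

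**Figure D5:**
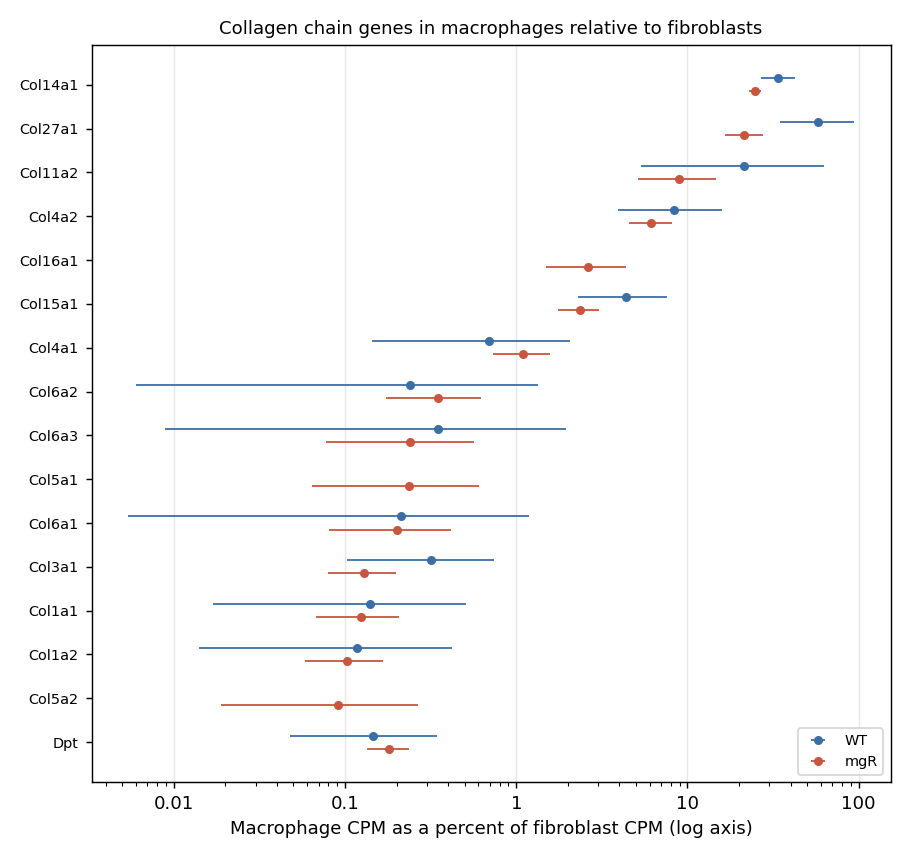
Level in macrophages as a percent of the level in fibroblasts, on a log axis, with WT and mgR as separate points and 95% counting intervals, the fibroblast gene Dpt at the bottom as the background, and no point for a library with 0 macrophage UMIs. Col14a1 lies at 33.8% and 24.8% and Col27a1 at 57.8% and 21.5%, whereas Col1a1, Col1a2 and Dpt lie at 0.181% or less.

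Within macrophages Col14a1 followed a subset. At least 1 UMI was found in 59 of 224 WT and 346 of 1526 mgR macrophages, or 26.3% and 22.7%, and in 11.01% and 9.05% after thinning to 2000 UMIs, with up to 5 and 12 UMIs in a cell. Macrophages with markers Cx3cr1 and Cd72 but not Lyve1, Folr2 and Cd163, 67 WT and 282 mgR cells, stood at 121.0 CPM (91.9 to 156) and 191.1 CPM (175 to 209). Macrophages with the resident markers Lyve1, Folr2 and Cd163 alone, 68 WT and 835 mgR cells, stood at 13.5 CPM (4.94 to 29.3) and 13.2 CPM (10.7 to 16.1). The thinned shares of cells with a Col14a1 UMI were 20.9% and 24.8% in the former and 2.94% and 2.07% in the latter, and the intervals of the subsets did not overlap in level in either library. The level pooled over macrophages thus joins unequal mixtures. In the cells with Cx3cr1 and Cd72 alone the mgR level interval lay above that of WT, while the intervals of the thinned shares overlapped (11.9% to 32.6% and 19.9% to 30.3%). Cells with both marker sets, 16 WT and 136 mgR, went the other way, at 118.5 CPM (66.3 to 195) and 75.2 CPM (62.0 to 90.4). Cells with neither, 73 and 273, stood at 45.8 CPM (27.1 to 72.4) and 64.6 CPM (53.7 to 77.0). Both of these pairs of intervals overlap.

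Dpt, which no cell rule used, stood at 2.39 CPM (0.0605 to 13.3) in WT macrophages with a Col14a1 UMI and 3.90 CPM (1.06 to 9.98) in those without, and at 4.05 CPM (2.16 to 6.93) and 3.84 CPM (2.73 to 5.25) in mgR, intervals that overlap in both libraries. Macrophages that also met the fibroblast rule had been left out beforehand, which limits how far a fibroblast gene could differ between these cells. In GRCm38 Col14a1 overlaps the opposite-strand genes 1700040F17Rik and Gm49257 on chromosome 15.

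Other chains were seen in macrophages at lower counts. Col27a1 had 26 WT and 92 mgR UMIs, or 18.0 and 6.89 CPM, which was 57.8% (34.7% to 94.1%) and 21.5% (16.6% to 27.6%) of its fibroblast level. Its genotype ratio was 0.383 (0.245 to 0.617), from counts short of the filter. Col15a1 had 13 and 57 UMIs and stood at 4.38% (2.31% to 7.58%) and 2.34% (1.76% to 3.06%) of its fibroblast level. Col4a2 stood at 8.36% (3.92% to 15.8%) and 6.12% (4.54% to 8.13%) of its fibroblast level, above the Dpt background in both libraries, as was Col15a1, while Col4a1 stood at 0.697% and 1.09%. The pair was therefore reversed in mgR macrophages, with 30 Col4a1 and 55 Col4a2 UMIs, or 0.545 (0.337 to 0.866) against 3.05 in mgR fibroblasts.

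Genes that process collagen were taken from a list of 36, and 30 passed in fibroblasts, 11 above and 19 below 1, with a median ratio of 0.913 against 0.966 for all genes. Past the 1.5-fold limit were 1 higher, against 4.15% of all genes, and 3 lower, against 7.11%. Plod1, a lysyl hydroxylase of the helix, stood at 61.7 CPM in WT and 30.6 CPM in mgR, a ratio of 0.496 (0.389 to 0.636). Mrc2, an endocytic receptor that clears collagen fragments, stood at 113.4 and 68.0 CPM, a ratio of 0.600 (0.505 to 0.715). P4ha1, a catalytic subunit of prolyl 4-hydroxylase, stood at 168.6 and 110.2 CPM, a ratio of 0.654 (0.569 to 0.753), with 0.895 (0.679 to 1.20) in Xist-only and 0.620 (0.490 to 0.784) in Y-only cells.

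Pcolce2, an enhancer of procollagen C-terminal cleavage, was the list's gene past the fold upward, at 148.6 and 228.4 CPM, a ratio of 1.54 (1.34 to 1.76), but short of the fold in either subset, at 1.33 (1.06 to 1.70) in Xist-only and 1.26 (1.03 to 1.55) in Y-only cells. Serpinh1, the collagen chaperone HSP47 of the endoplasmic reticulum, stood at 780.2 and 552.1 CPM, a ratio of 0.708 (0.664 to 0.754), short of the fold, with 1.04 (0.904 to 1.19) in Xist-only and 0.695 (0.630 to 0.768) in Y-only cells. In cells of the endothelium rule, fibroblast rule met or not, 9 of the list passed, 5 above and 4 below 1, and Sparc, a collagen-binding matricellular protein, was past the fold at 250.9 and 432.5 CPM, a ratio of 1.72 (1.35 to 2.23). In macrophages 7 passed, 5 above and 2 below 1, and none past the fold.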

How the data were processed

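The deposited values were raw UMI counts per gene and cell, which the authors made with Cell Ranger 7.1.0 and build mm10, as their processing notes give them. The annotation, and whether intronic reads were counted, are not given in the sources used here. A 3′ library counts each captured molecule once, whatever its length. Cells with 200 to 5000 genes and at most 10% mitochondrial UMIs were kept, as in the study's methods. Named were all genes matching the symbol form, with the processing list. The members and lists were chosen with earlier results of these data known. Counts were summed per library and cell type and given as CPM with exact Poisson intervals. Ratios had exact conditional binomial intervals and shares exact Clopper-Pearson intervals, all at 95%, covering counting error only (Python 3.11.15, numpy 2.4.6, scipy 1.17.1). A gene passed with 20 UMIs expected in the smaller library, and a fold of 1.5 was named. No test was run, since each genotype had 1 library. Scrublet (scanpy 1.11.5) was used as an alternative only, marking 0.800% of WT and 1.48% of mgR cells, and its cells stayed in. Ratio intervals and fold calls were tried on Poisson totals simulated per gene, which hold no spread between cells. Coordinates are GENCODE and sequences RefSeq, both on GRCm38, the assembly of mm10, and 35 of 44 members matched a promoter entry. Alternatives changed the cell rules, depth, scaling, filter and fold. The designed limit of 1 rule per cell was relaxed for endothelium after seeing the data.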

Additional observations from a re-analysis of the deposited data

Results flagged for a closer look

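Some collagen chain genes had mgR-to-WT ratios on opposite sides of 1 in different cells, with counting intervals that did not overlap. None of these differences was tested, since each genotype had 1 library, and sex and animal cannot be told apart within it. In fibroblasts, Col1a2 had a ratio of 1.19 in Xist-only cells and 0.859 in Y-only cells, and Col5a2 had 1.15 and 0.766. Col6a6 had 0.360 and 1.28, the opposite order. In cells of the endothelium rule, fibroblast rule met or not, Col3a1 had 2.56 in Xist-only cells and 0.308 in Y-only cells, from 10 and 20 WT UMIs, and Col4a1 had 1.13 and 0.346, from 24 and 52 WT UMIs. Col3a1 also differed between cell types, at 1.11 in fibroblasts and 0.798 in cells of the endothelium rule, where the interval of the latter reaches 1.03.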

How the results depend on the processing

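No paired analysis was possible because each genotype had 1 library, so no replicate could be left out either. The main values were 2 members higher and 0 lower in fibroblasts, a collagen total of 0.953 and class ratios of 0.986 fibrillar, 0.773 basement membrane, 0.798 beaded filament, 1.79 network, 1.16 FACIT and 0.891 multiplexin. With each cell counted in every type whose rule it met, 7 members were lower (Col6a1, Col6a2, Col6a3, Col6a6, Col4a1, Col4a6 and Col16a1), and the total was 0.787, fibrillar 0.799, beaded filament 0.647, network 1.44, FACIT 0.946 and multiplexin 0.745, and 3 members were lower in endothelium, as they were under the rule added after seeing the data (3). In Xist-only cells 1 was higher and 2 lower, with total 1.01, fibrillar 1.06, basement membrane 0.922 and FACIT 0.986. In Y-only cells 1 was higher and 1 lower, with total 0.882, fibrillar 0.890 and FACIT 1.05. Thinned to 2000 UMIs, 1 was higher and 3 lower, with total 0.915, fibrillar 0.944 and FACIT 1.04. The mean of per-cell CPM gave 1 lower, total 0.925, basement membrane 0.691 and multiplexin 0.783. Without mural or tendon and cartilage markers 1 was higher and 2 lower, with total 0.980, fibrillar 1.03 and FACIT 1.29. Scaling by the median ratio of all genes gave total 0.987 and fibrillar 1.02. Without the 10 cells with most UMIs of each gene 1 was higher. Without the 10 cells with most UMIs of each sum, the total was 0.984, fibrillar 1.03, beaded filament 0.848, network 2.33 and multiplexin 1.02. The count of higher members was 1 with stricter marker minimums, 0 at a fold of 2, 4 with 10 UMIs expected, 1 with 50 and 8 with no filter beyond 1 UMI, which also gave 3 lower and, in endothelium, 16 higher and 5 lower. The cause of these shifts was not tested.

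In fibroblasts, Col8a1 ranged from 1.52 to 2.42 over 11 settings and Col8a2 stayed above 1 in the 10 that gave a value. Col6a1, Col6a2 and Col6a3 were below 1 in all 11, as were Col5a1, Col16a1, Col4a2, Col4a5 and Col4a6. Col1a1 was also below 1 in all 11 but reached 0.994, close to the 1.01 that Col4a1 reached in 1. Col14a1 fell to 0.968 in 1. These 3 values were those of Xist-only cells. Depth limits the endothelium rule most, where 20 expected UMIs correspond to 373.5 CPM.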

Other observations

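Cells that met none of the 3 rules held few collagen UMIs, and the chains there differed from those of fibroblasts. In WT, 24 such cells with the melanocyte markers Dct, Pmel, Mlana and Tyr held 34 collagen UMIs, of which 12 were Col18a1, 8 Col12a1 and 7 Col16a1. In mgR, 242 cells with none of the marker lists held 38 Col27a1 UMIs in 25 cells, or 18.3 CPM (12.97 to 25.2), and 12 Col4a1 UMIs. WT cells of the same kind, 95 in number, held 3 Col27a1 UMIs, or 6.36 CPM (1.31 to 18.6), an interval that overlaps that of mgR. Col25a1, a transmembrane chain, had 20 UMIs in all mgR cells, 50% of them in cells that met both the fibroblast and the endothelium rule.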
